A study of Zea mays with 74 samples.

Results

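The vgt1 flowering locus is described here through every differentially methylated region (DMR) and every selective sweep that touches 4 Mb of maize chromosome 8, from 134000000 to 138000000 (B73 AGPv4). The window was set by position around the CG DMR that the study names the vgt1-DMR. The study places this DMR downstream of the vgt1 locus and not within it. The window held 7 of the 6389 deposited DMRs and 4 of the 4060 deposited sweeps. The populations compared were 14 published modern maize inbred lines, 17 open-pollinated Mexican landrace plants and 20 plants of teosinte (Zea mays ssp. parviglumis, the wild ancestor of maize) from near Palmar Chico. Landrace and teosinte plants were greenhouse seedlings, and the third leaf of each was sequenced by bisulfite sequencing (WGBS), which reads cytosine methylation, and by whole-genome sequencing (WGS), which reads SNPs. The teosinte plants come from 1 locality and the modern lines are inbred, so each group stands for its population only to that extent. The study took the data of the modern lines from earlier work and sequenced the landraces and teosinte itself. In comparisons with modern maize, population and data source therefore cannot be told apart. Both tables were made by the authors from whole populations and carry no value of a single plant, so the spread between plants is unknown and no test was run.

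vgt1 is a quantitative trait locus for flowering time in maize. It is a non-coding stretch upstream of ZmRap2.7, which encodes an AP2-type transcription factor that represses flowering, and a transposon insertion within vgt1 is associated with earlier flowering. Plants methylate cytosines in 3 contexts, CG, CHG and CHH, in which H can be A, C or T. CG methylation is copied by a maintenance methyltransferase after replication, CHG methylation is tied to the histone mark H3K9me2, and CHH methylation in maize is concentrated at short islands near genes and depends on RNA-directed methylation. A selective sweep here is a stretch that ranked among the outliers of a genome scan for allele-frequency differences between populations. It was scored here by the authors with XP-CLR, a composite likelihood with no fixed range.

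The vgt1-DMR differed in both CG and CHG methylation between modern maize and teosinte. The CG DMR runs from 135969172 to 135969381 and spans 209 bp. A CHG DMR of the same comparison, from 135969131 to 135969424 and 293 bp long, contains it whole, so that 71.3% of the CHG DMR is also CG DMR. The CHG call reaches 41 bp beyond the CG call on the low-coordinate side and 43 bp beyond it on the other, which makes the pair almost concentric. Over all chromosomes, 49.8% of the 1545 CG DMRs between modern maize and teosinte overlapped a CHG DMR of that comparison, and 18.9% lay wholly inside one. The vgt1-DMR is thus 1 of 292 CG DMRs nested in this way. No DMR of either comparison with landraces overlapped it, in any context. A CG or CHG DMR between landraces and teosinte overlapped 20.9% of the 1545 CG DMRs, and one between modern maize and landraces overlapped 6.15%. A region missing from those lists was not called, whether for its difference, its sites, its coverage or its p-value, which does not show that the levels there were alike. The table gives no methylation levels, so the direction of the difference is not given here.

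**Figure D1:**
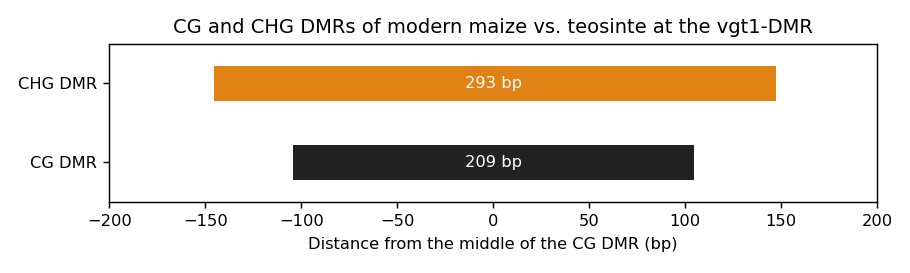
The CG DMR (lower bar) and the CHG DMR (upper bar) called between modern maize and teosinte at the vgt1-DMR, against distance in bp from the middle of the CG DMR. The 209-bp CG DMR lies wholly within the 293-bp CHG DMR, with 41 bp of CHG DMR left over on one side and 43 bp on the other.

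The vgt1-DMR is shorter than most CG DMRs. The median length of the 1545 CG DMRs between modern maize and teosinte was 333 bp, with a range of 41 to 2878 bp, and 23.9% were shorter than 209 bp. The CHG DMR around it was also short for its class, with 26.9% of the 2372 CHG DMRs shorter than its 293 bp and a class median of 458 bp.

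All 7 DMRs of the window were called between modern maize and teosinte, groups whose population and data source cannot be told apart. There were 4 CG, 2 CHG and 1 CHH DMRs, and none between landraces and teosinte or between modern maize and landraces. At the density of all chromosomes, 4 Mb would hold 2.94 CG, 4.51 CHG and 2.0 CHH DMRs of modern maize vs. teosinte, 1.98 DMRs of landrace vs. teosinte and 0.711 of modern maize vs. landrace. The CG count is thus a little above that density and the CHG and CHH counts are below it, and differences of this size between a few neighbouring regions are not a result by themselves.

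The CG DMRs lie far apart. The first runs from 134840623 to 134840807 and spans 184 bp, 1.13 Mb below the vgt1-DMR, and no DMR of any class lay within 500 kb of it. The second, from 135540695 to 135541128, spans 433 bp and is the nearest separate DMR to the vgt1-DMR, with 428 kb between them. It is the longest CG DMR of the window, and 63.2% of its class are shorter. The fourth, from 137530662 to 137530797, spans only 135 bp, and 7.96% of its class are shorter. The study's map of DMRs along genes places the first CG DMR in Zm00001d010950, the second in Zm00001d010974 and the last in Zm00001d011055, and does not list the vgt1-DMR. These genes were named after the positions were seen, and their roles are not given in the sources used here. Of the 4 CG DMRs only the vgt1-DMR overlapped a CHG DMR, against the share of 49.8% in its class.

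The CHG and CHH DMRs other than the one at the vgt1-DMR lie on the high-coordinate side. The CHH DMR runs from 136988098 to 136988381, 1.02 Mb above the vgt1-DMR. Its 283 bp are long for a CHH DMR, since the class median was 109 bp and 92.5% of the 1055 were shorter. The second CHG DMR, from 137130531 to 137131343, is the longest DMR of the window at 812 bp, with 78.5% of its class shorter, and lies 142 kb above the CHH DMR. Neither overlapped a DMR of another context. Among all CHH DMRs of modern maize vs. teosinte, 1.9% overlapped a CG or CHG DMR, and among all CHG DMRs 32.1% overlapped a CG DMR.

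**Figure D2:**
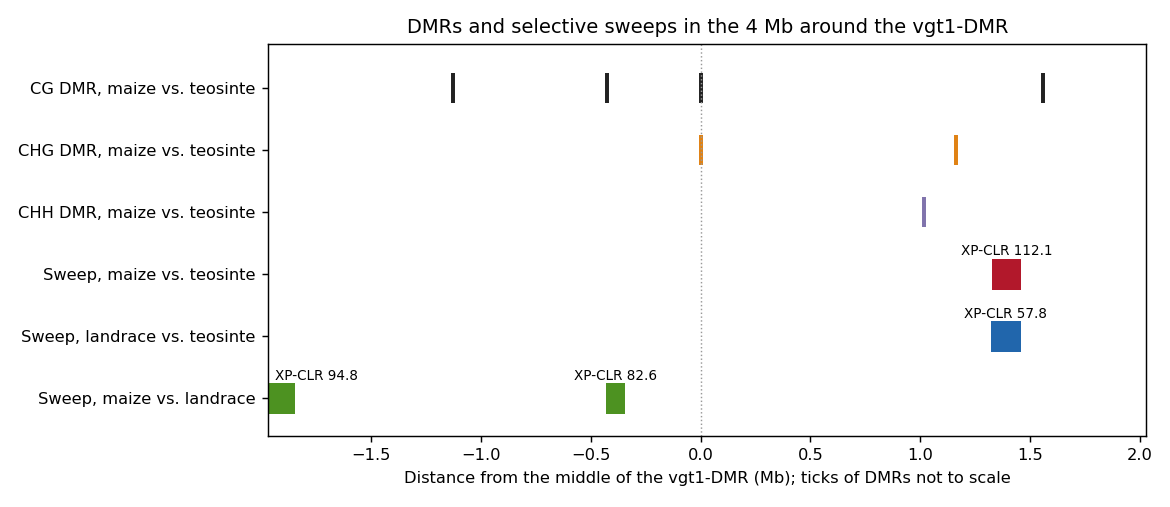
Positions of the 7 DMRs (ticks, by context) and 4 selective sweeps (bars, by comparison, with the authors' XP-CLR score) against distance in Mb from the middle of the vgt1-DMR. The window is cut at its edges, no sweep covers the vgt1-DMR at 0, and the second CG DMR from the left lies at the edge of the sweep with a score of 82.6.

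The vgt1-DMR lay outside every sweep. The nearest of any comparison was a sweep between modern maize and landraces, 344 kb away on the low-coordinate side. With only sweeps at or above the median score of their comparison, the nearest of any comparison was 1325619 bp away. The nearest between modern maize and teosinte was 1.33 Mb away and the nearest between landraces and teosinte 1.32 Mb, both on the other side. Of the 1545 CG DMRs between modern maize and teosinte, 27.7% overlapped a sweep of that comparison and 42.5% overlapped a sweep of some comparison. The gap of 1.33 Mb was longer than that of 84.3% of these DMRs, of which the median gap was 197 kb. The gap of 344 kb was longer than that of 80.5% of them to a sweep of any comparison, with a median of 28.7 kb. The gap to a sweep between modern maize and landraces was near the middle of its class, with 53.5% nearer and a median of 280 kb. These ranks describe 1 DMR and have no error.

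None of the 7 DMRs overlapped a sweep of its own comparison, against 29.2% of all 6389 DMRs. A floor of 3 counts allows a share of up to 42.9% for 0 of 7, and the exact binomial 95% interval ends at 41.0%. Both cover counting error only and take all 7 DMRs as independent, with the 2 nested calls at the vgt1-DMR as separate members. The 7 DMRs share 1 stretch with 1 sweep of their comparison, so neither figure is a test of this share. The class shares were 27.7% for CG, 27.6% for CHG and 37% for CHH. The window's sweep between modern maize and teosinte lies above the vgt1-DMR, so the DMRs on that side are closer to it by position alone. The CHH DMR was 307 kb from this sweep, the second CHG DMR 164 kb and the last CG DMR 101 kb. The second CG DMR, below the vgt1-DMR, was 1.75 Mb from it. The first CG DMR was nearer to another sweep of this comparison, 1.69 Mb away below the window.

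The only DMR of the window inside any sweep was the second CG DMR. It lay in the sweep between modern maize and landraces from 135540001 to 135625000, 695 bp from its start and 83.9 kb from its end. The DMR itself was called between modern maize and teosinte, and no sweep between modern maize and teosinte or between landraces and teosinte covered it. Over all chromosomes 22.5% of the CG DMRs of this class lay in a sweep between modern maize and landraces, and 6.99% lay in such a sweep and in no other. All sweep edges are multiples of 5 kb, so 695 bp from an edge is less than 1 step of the scan.

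**Figure D3:**
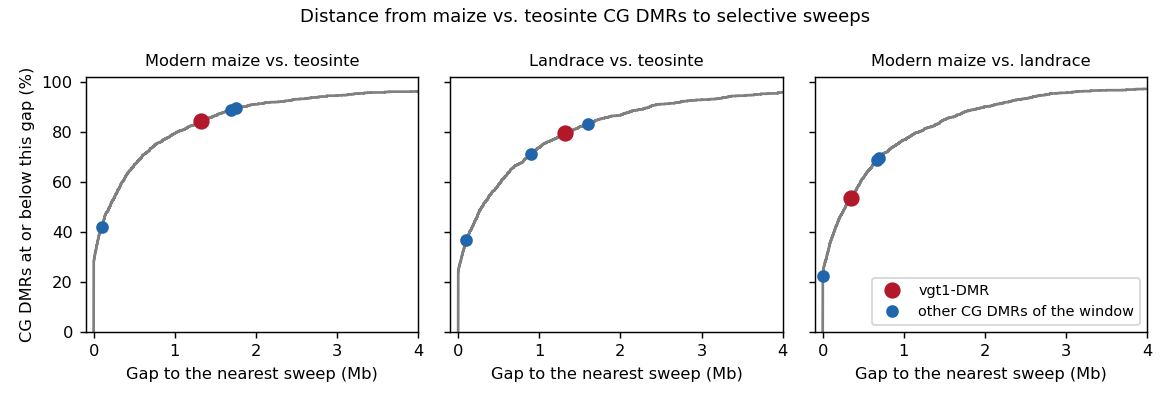
Share of the 1545 CG DMRs of modern maize vs. teosinte (y axis, %) whose gap to the nearest sweep is at or below the value on the x axis (Mb, cut at 4 Mb), for the sweeps of each comparison. Points are the 4 CG DMRs of the window, with the vgt1-DMR in red at 1.33, 1.32 and 0.344 Mb from left to right.

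The sweeps of the window covered little of it. Sweeps between modern maize and teosinte made up 3.38% of the 4 Mb, against 14.8% of chromosome 8 and 15.8% of all chromosomes. For landrace vs. teosinte the share was 3.50%, against 15.3% and 15.9%, and for modern maize vs. landrace 5.12%, against 12.7% and 15.5%. Together the 3 comparisons covered 8.62% of the window, or 345 kb, each base counted once, against 30.6% of all chromosomes. Of 519 windows of 4 Mb tiled along the chromosomes, 13.3% had a smaller covered share, and the median was 23.9%.

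The sweep with the highest rank lay 1.33 Mb above the vgt1-DMR. It runs from 137295001 to 137430000 and separates modern maize from teosinte, and the authors scored it 112.1 by XP-CLR, rank 199 of 1330 and rank 20 of the 120 on chromosome 8. The median score of its comparison was 77.2. A sweep between landraces and teosinte, from 137290001 to 137430000, contains it whole and ends at the same base, and its deposited XP-CLR was 57.8. That score was low for its comparison, at rank 1016 of 1355 and below the median of 68.8. Of the sweeps between modern maize and teosinte, 47.4% overlapped one between landraces and teosinte and 17.9% lay wholly inside one. The comparisons share the teosinte plants, so the overlap is no independent repeat.

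Both sweeps between modern maize and landraces lay below the vgt1-DMR. The one from 133970001 to 134120000 crosses the window's edge, has 120 kb inside and has a deposited XP-CLR of 94.8, rank 501 of 1375. The one from 135540001 to 135625000 has a deposited XP-CLR of 82.6, rank 744, just under the median of 85.3 for its comparison. Neither overlapped a sweep of another comparison, and 46% of all sweeps between modern maize and landraces overlapped none either. Of the 4 sweeps of the window, 3 held no DMR of any class, against 68.6% of all sweeps. The scores are not compared between comparisons, since each scan has its own scale.

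**Figure D4:**
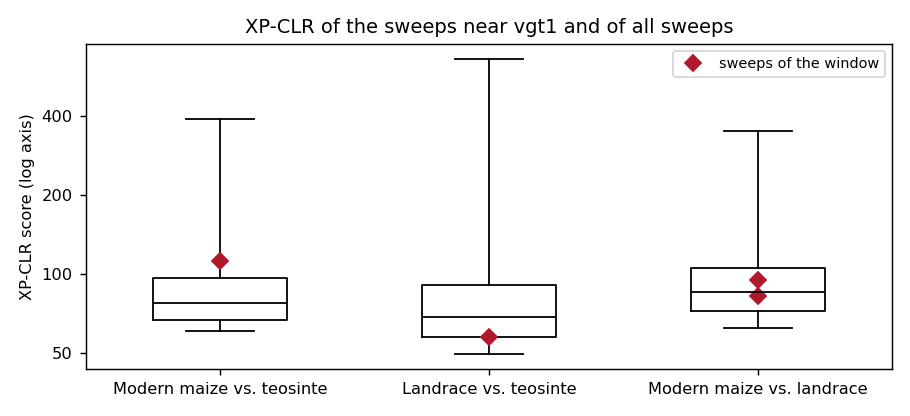
XP-CLR scores (log axis) of all sweeps of each comparison, with boxes from the first to the third quartile, a line at the median and whiskers to the lowest and highest score. Diamonds are the 4 sweeps of the window, at 112.1 for modern maize vs. teosinte, 57.8 for landrace vs. teosinte and 94.8 and 82.6 for modern maize vs. landrace.

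The vgt1-DMR had few DMR neighbours. Within 1 Mb on either side there were 2 other DMRs, the CHG DMR around it and the second CG DMR, and 90.9% of the 1545 CG DMRs had more, with a median of 8. Within 2 Mb there were 6, and 87.6% had more. Leaving out overlapping calls, its nearest DMR was farther than that of 86.8% of the CG DMRs. The nearest CG DMR of the same comparison was at a more common distance, since 59.5% had one nearer than 428 kb. The other CG DMRs of the window were as sparse, with 1, 3 and 3 other DMRs within 1 Mb.

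As a whole the window held 1.75 DMRs per Mb, against 2.96 on chromosome 8 and 3.03 over all chromosomes. Among the 519 tiled windows the median was 10 DMRs and the range 0 to 62, and 27.7% held fewer than 7. The count is therefore low but within the middle range of such windows, whose lower quartile was 6 and upper quartile 16. The nearest DMRs outside the window were a CHG DMR between modern maize and landraces that ends 523 kb below its lower edge and a CHG DMR between modern maize and teosinte that starts 464 kb above its upper edge. The vgt1-DMR lies at 75.1% of the length of chromosome 8.

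**Figure D5:**
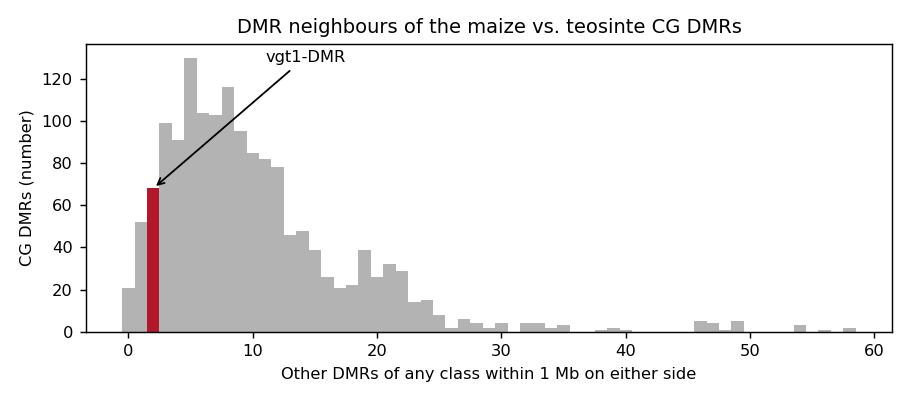
Number of CG DMRs of modern maize vs. teosinte (y axis) by how many other DMRs of any class lie within 1 Mb on either side (x axis). The red bar holds the CG DMRs with 2 such neighbours, the vgt1-DMR among them, and the median over all 1545 is 8.

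The study's list of chromatin contacts joins the vgt1-DMR to Zm00001d010986, for which it names days to silking as the trait. The contacts were taken from published data of the modern inbred line B73. The study also reports a contact between the vgt1-DMR and the vgt1 locus in B73, which it did not detect in a teosinte sample. That pair differs from the contact with Zm00001d010986. Neither deposited table names a gene, so these data give no value for Zm00001d010986 other than the position of the DMR. No other DMR of the window is on that list. The gene table at hand is of another genome assembly and does not hold its ID, so the position and the role of Zm00001d010986 are not given.

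The DMR upstream of tb1, a repressor of branching and the other locus that the study followed in depth, differs from the vgt1-DMR in its surroundings. It runs on chromosome 1 from 270512522 to 270513056 and spans 534 bp in CG. At tb1 the CHG DMR of modern maize vs. teosinte, 453 bp long, lies wholly inside the CG DMR. At the vgt1-DMR the CG DMR lies inside the CHG DMR. A CHG DMR between landraces and teosinte, 329 bp long, was also called at tb1 and none at the vgt1-DMR. A missing call does not show that landraces and teosinte had like methylation levels there. Within 1 Mb the vgt1-DMR had 2 other DMRs and the DMR at tb1 had 8. The DMR at tb1 lies in a sweep between modern maize and teosinte and the vgt1-DMR does not. These are descriptions of 1 DMR each, with no test of the difference.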

How the data were processed

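Per the study's methods, WGBS reads were mapped with Bowtie2 to the B73 genome (AGPv4) after substitution of each plant's SNPs, cytosines were extracted with Bismark, and DMRs were called between populations with metilene. A minimum mean difference was set for CG and CHG, so smaller shifts in those contexts are not listed. The study states none for CHH and breaks its published count down by CG and CHG only. The 6389 deposited DMRs include 1092 CHH DMRs and outnumber that published count. The remaining 2147 CG and 3150 CHG DMRs together still slightly exceed it, so the CHH DMRs are not the whole excess. Class sizes given here are those of the deposited list. WGS reads were mapped with BWA-mem, filtered with Picard and called with GATK 4. The sweep score in the deposited table is the authors' XP-CLR, kept for outlier windows after merging. DMR starts were taken to count from 0, since end minus start then gives the length that the study states, and sweep starts from 1. Coordinates are printed as deposited. In the sweep table, 23 ends written as powers of 10 were read as round numbers, none of them in the window. Chromosome ends were the largest positions in the tables.

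Overlap was at least 1 bp, and interval functions were tested on simulated regions. Gaps count the bases between regions. Python 3.11.15, numpy 2.4.6, pandas 2.3.3, scipy 1.17.1 and matplotlib 3.10.9 were used. Zm00001d010986 was named as the contact gene of the DMR at the centre, and the genes of the other CG DMRs after their positions were seen. The window and all comparisons were chosen with earlier results of these data known. Sequencing depth, methylation levels, an AGPv4 annotation and its sequence were not used here. What depth did to the calls was not tested, and no sequence is printed.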

Additional observations from a re-analysis of the deposited data

How the results depend on the processing

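Of 19 alternatives over 11 values, 15 left the value as it was or a count within 1.5 times. Under every alternative run for them, 7 of the 11 values stayed within that margin. Some alternatives could not have moved their value, so this tally does not measure stability. The nearest separate DMR to the vgt1-DMR is itself a CG DMR of modern maize vs. teosinte, the classes to which 2 alternatives were limited. Its nearest sweep of that comparison scored above the median, so the median filter could not change that gap. Counting the 2 nested calls at the vgt1-DMR as 1 locus gave 6 DMRs in the window instead of 7. With only sweeps at or above the median XP-CLR of their comparison, the window's covered share was 0 for landrace vs. teosinte and 3.0% for modern maize vs. landrace, and the nearest sweep of any comparison was 1325619 bp from the vgt1-DMR instead of 344172 bp. With 4 Mb on each side of the DMR, 4.37% was covered by sweeps between modern maize and teosinte. The count of 0 DMRs in a sweep of their own comparison stayed 0 under its 3 alternatives, but none of them could have raised it. Asking for more of the DMR, or for higher-scoring sweeps only, can remove overlaps but not add any. Counting DMR starts from 1 shifts them by 1 bp, and the nearest such sweep to any DMR of the window was 101 kb away. No paired analysis was possible because both tables describe populations and no result comes from a test over plants. The lists hold called regions only, so regions below the authors' thresholds cannot be told from regions without coverage.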
